A study of Mus musculus with 59 samples.

Results

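Cytochrome P450 enzymes of families 4 and above were examined in liver, bone marrow and spleen of mice given baclofen or vehicle. The members are the probe sets whose platform annotation gives exactly 1 gene symbol, beginning with Cyp and carrying a family number of 4 or more. This rule uses names only and takes in 46 of 34945 probe sets with 1 symbol, or 30 of 18193 genes. All 30 gene identifiers were found in RefSeq, where 1 of them, Cyp4f41-ps, is a pseudogene. Of the 30 genes, 12 have several probe sets and 18 have 1. Within each tissue the brightest probe set stood for its gene. Genes at or above the 40th percentile of mean brightness over all arrays of the tissue were tested. By that filter 20 members were tested in liver, 12 in spleen and 10 in bone marrow, and 8 in no tissue.

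All animals were B6C3F1 hybrid mice. The vehicle was 0.5% methylcellulose, which also stands as the control for baclofen, an agonist of the GABA-B receptor used as a muscle relaxant. Mice received 1 daily dose or 5, and tissues were taken 2 h after the last one: a piece of the left lateral liver lobe, marrow of the right humerus and part of a cross-section of the spleen. The 1-day groups held 4 arrays per tissue and treatment, except for 3 vehicle livers. In the 5-day groups every tissue had 4 arrays of vehicle and 8 of baclofen. The 59 Affymetrix arrays give intensities, shown here as log2, and their number limits the precision. The labels used here give no baclofen dose, age or sex, and do not say that each replicate is a separate animal, so p-values measure only the spread between these samples. For 5 of the 7 livers of the 1-day groups, title and source field disagree on the treatment; the title, which the treatment field matches, was followed.

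P450 enzymes are haem proteins that insert oxygen into lipophilic molecules with electrons passed on by a reductase. Most drug-metabolising P450s lie in the lower-numbered families, whereas those studied here act mainly on the body's own lipids. Cyp4 enzymes hydroxylate the end of fatty acid and eicosanoid chains, and the Cyp4a genes are classic targets of the fatty acid receptor PPAR-alpha in liver. Other families turn cholesterol into bile acids (Cyp7, Cyp8, Cyp27, Cyp39, Cyp46), make steroid hormones (Cyp11, Cyp17, Cyp21), handle vitamin D (Cyp24, Cyp27) or retinoic acid (Cyp26), or help to build cholesterol (Cyp51).

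Defining markers of each tissue were present. The mean of 11 hepatocyte genes lay between 14.51 and 14.60 in the 19 livers. Most spleens had that mean between 4.82 and 5.39, whereas spleen vehicle 5 day replicates 3, 1 and 4 had 9.79, 7.20 and 6.03 and spleen baclofen 5 day replicate 5 had 9.56. The mean of 10 skeletal muscle genes was 10.03 in bone marrow baclofen 1 day replicate 3, against 6.58 for the lowest array of that group. Spleen results at 5 days and marrow results at 1 day are therefore also given without spleen vehicle 5 day replicates 1 and 3, spleen baclofen 5 day replicate 5 and that marrow array. Spleen vehicle 5 day replicate 4, at 6.03, was kept in that setting, so it does not remove every array with raised hepatocyte genes. The Y-linked gene Eif2s3y was at 9.01 or above in all 59 arrays, and Xist was at 6.75 or below. In liver baclofen 5 day replicate 8, 10 of the 20 tested members were the highest or the lowest array of their group, beside 44.5% of all genes tested.

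The members differed widely in the tissue that gave signal, as the plot of levels in the 3 tissues shows. Tissues were normalized apart, so only differences of 3 or more on the log2 scale were read. By that measure 10 of the 30 members were higher in liver than in both other tissues, 2 were lower and 18 lay closer. The 10 include the bile acid genes Cyp7a1, Cyp7b1, Cyp8b1 and Cyp27a1, the fatty acid and eicosanoid hydroxylases Cyp4a12a, Cyp4a14, Cyp4f14, Cyp4f15 and Cyp4v3, and Cyp51. Cyp4a12a, an arachidonate hydroxylase known to be higher in males, had a mean of 12.50 in liver, and 4.14 and 4.17 in marrow and spleen. Cyp4f18, which inactivates leukotriene B4 in neutrophils, had the opposite order, with means of 3.56 in liver, 9.96 in marrow and 9.38 in spleen. The other member lower in liver was Cyp4f16, whose means were 4.96 in liver, 7.30 in marrow and 8.41 in spleen. The 8 members tested in no tissue were Cyp11a1, Cyp11b1 and Cyp11b2 of steroid synthesis, Cyp24a1 and Cyp27b1 of vitamin D metabolism, Cyp4f39, Cyp4f41-ps and Cyp4x1. Their arrays ran from 3.13 to 5.86, and no call was possible for them.

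**Figure D1:**
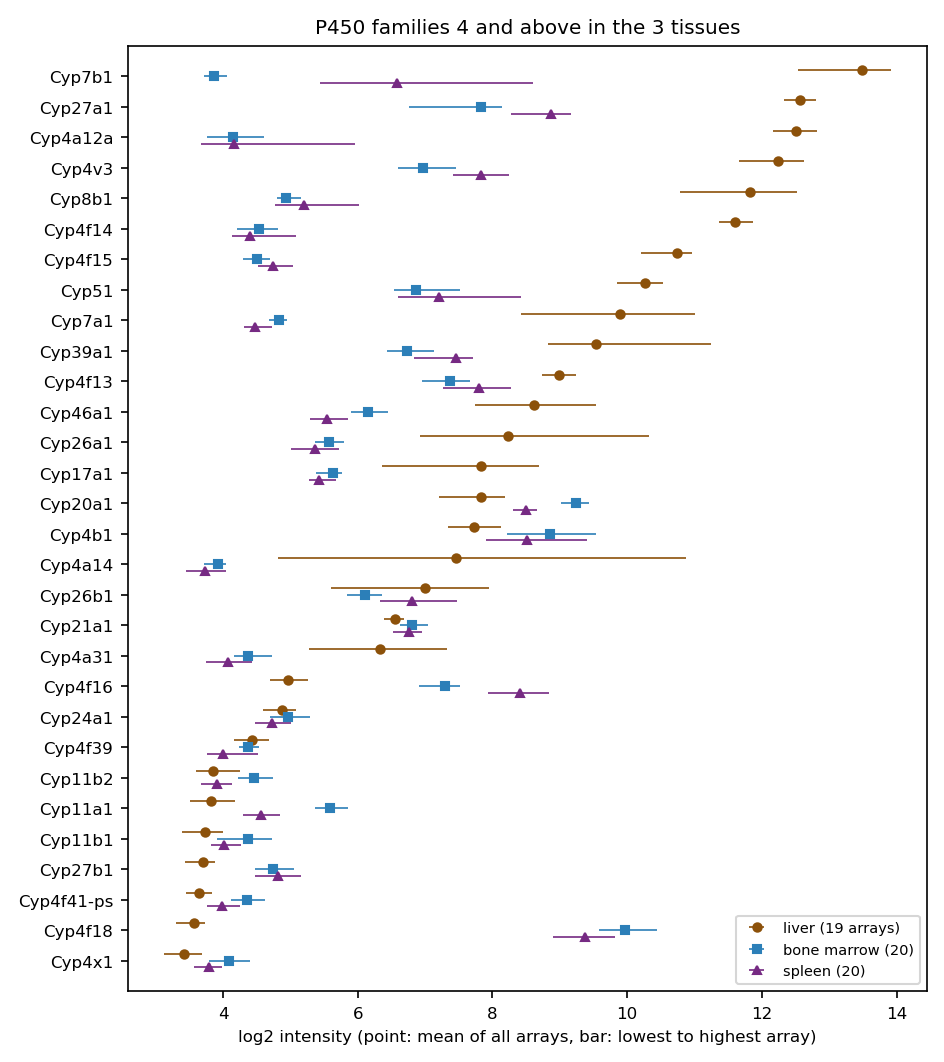
Log2 intensity of the 30 P450 genes (one row each) in liver, bone marrow and spleen; points are means over all arrays of a tissue and bars run from the lowest to the highest array. Cyp4a12a lies at 12.50 in liver and near background elsewhere, and Cyp4f18 at 3.56 in liver and 9.96 in bone marrow.

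The promoters of the genes that moved are shown because 7 members passed the test in at least 1 baclofen comparison, all of them upward. RefSeq (GRCm38.p6) gave a promoter window for 17 of the 30 members. Of the 7 called members, Cyp27a1 and 4 others have a window. Printed for these 4 are the bases before the gene's start, as far as they lie outside the annotated gene: Cyp26b1 (minus strand, chr6:84593909-84594060), Cyp46a1 (plus strand, chr12:108334066-108334267), Cyp4b1 (minus strand, chr4:115647722-115647971) and Cyp4f13 (minus strand, chr17:32947416-32947611). Each reads 5′ to 3′ on its gene's strand, and capitals mark a match to a searched motif.
Cyp26b1 promoter: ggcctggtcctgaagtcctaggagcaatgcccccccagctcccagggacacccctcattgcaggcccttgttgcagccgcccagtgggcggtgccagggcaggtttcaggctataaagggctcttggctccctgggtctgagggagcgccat
Cyp46a1 promoter: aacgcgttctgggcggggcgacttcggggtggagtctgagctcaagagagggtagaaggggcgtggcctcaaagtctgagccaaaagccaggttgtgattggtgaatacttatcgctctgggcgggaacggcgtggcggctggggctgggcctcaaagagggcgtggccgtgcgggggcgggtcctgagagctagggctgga
Cyp4b1 promoter: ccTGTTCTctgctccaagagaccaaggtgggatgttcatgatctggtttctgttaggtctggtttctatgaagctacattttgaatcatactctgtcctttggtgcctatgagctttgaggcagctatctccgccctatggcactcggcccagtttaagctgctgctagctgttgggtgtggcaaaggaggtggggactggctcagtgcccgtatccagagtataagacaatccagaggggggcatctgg
Cyp4f13 promoter: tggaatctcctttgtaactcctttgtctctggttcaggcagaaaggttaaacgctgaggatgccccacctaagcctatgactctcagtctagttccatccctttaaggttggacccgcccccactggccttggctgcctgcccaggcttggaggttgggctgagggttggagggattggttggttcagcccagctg
In the 250 bases before the start, 3 motifs were searched on both strands: the nuclear receptor half-site AGGTCA, the glucocorticoid receptor half-site TGTTCT and the E-box CACGTG. They occurred in 14.0%, 16.1% and 6.02% of 32851 mouse windows. Each occurred in a window of 1 of the 17 members, AGGTCA in Cyp11a1, TGTTCT in Cyp4b1 and CACGTG in Cyp4v3. The printed stretches of Cyp26b1, Cyp46a1 and Cyp4f13 held none of these letters.

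After 5 doses, 3 members rose in liver: the fatty acid hydroxylase Cyp4a14, the retinoic acid hydroxylase Cyp26b1 and the cholesterol hydroxylase Cyp46a1. No member fell. The 3 calls among 20 tested members stand beside 10.6% of all 10916 genes called, 4.86% higher and 5.75% lower, so the members' share was near the background. The count was 6 without liver vehicle 5 day replicate 1, 1 without replicate 2 or 3 and 5 without liver baclofen 5 day replicate 7. At an unadjusted p under 0.05 there were 10 of the 20 members, beside 26.7% of all genes. The median log2 difference was 0.18 over the tested members and -0.02 over all genes. After 1 dose, limma called 0 of the 20 members, with 2 at an unadjusted p under 0.05. Of all genes 2.67% were called, 1.58% higher and 1.09% lower, and 12.5% had an unadjusted p under 0.05. With the 1-day livers grouped by source field, limma called 0 of all genes at 1 day, so every liver result at 1 day depends on which label is right. The plot of liver differences shows both times. Whole-tissue RNA cannot tell fewer cells of a type from less RNA per cell. In the same 5-day livers 1 of 8 macrophage genes fell, with a median difference of -0.39, and their mean ran from 8.07 to 8.62 in vehicle and from 7.70 to 8.18 in baclofen arrays. Of 2 tested neutrophil genes 1 fell, with a median of -2.04, whereas 0 of 11 hepatocyte genes were called. The part of these cells in the results was not tested.

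**Figure D2:**
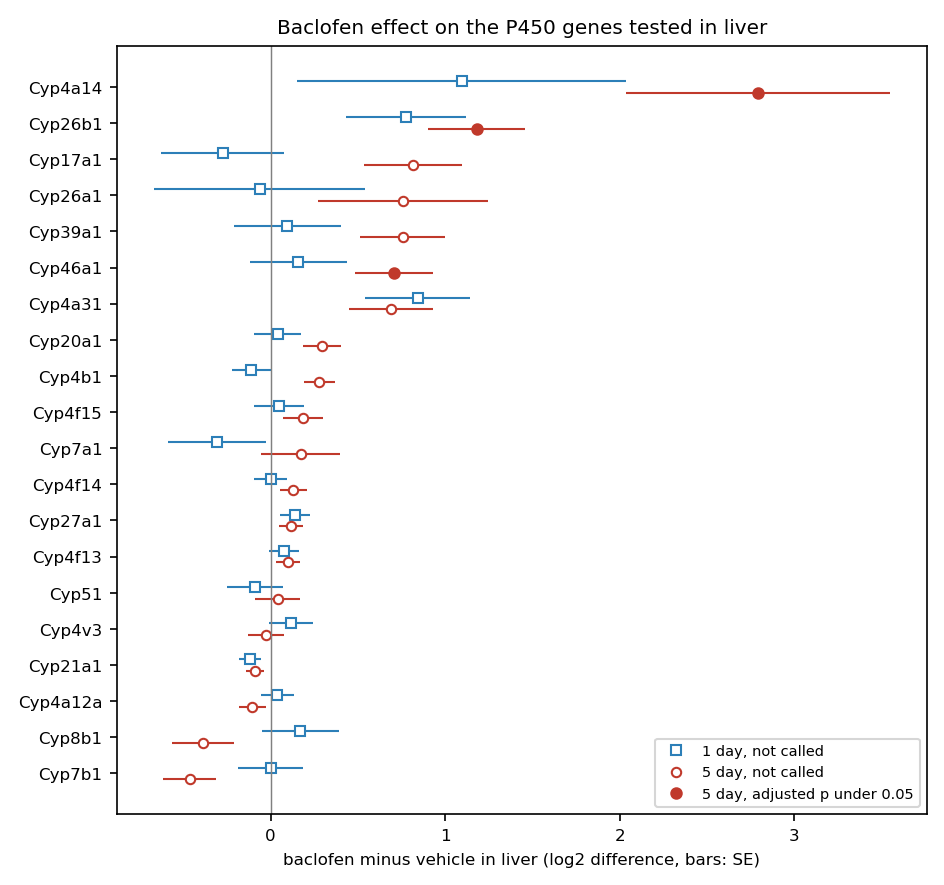
Baclofen minus vehicle in liver as log2 difference with its SE for the 20 tested P450 genes, at 1 day (squares) and 5 days (circles). Filled symbols passed the test, which at 5 days are Cyp4a14 (2.79), Cyp26b1 (1.18) and Cyp46a1 (0.71).

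Cyp4a14 (NCBI Gene 13119) had the largest difference among the tested members. Its log2 intensity in vehicle livers at 5 days was 7.98, 5.89, 4.81 and 6.29. The 8 baclofen livers at 5 days had 7.91, 10.06, 9.24, 6.20, 8.23, 10.59, 9.18 and 10.87. All but baclofen replicates 1 and 4 lay above the highest vehicle liver, and the groups overlapped. The difference was 2.79 ± 0.76 (SE), or 6.93-fold, with a limma adjusted p of 0.0232. Without liver vehicle 5 day replicate 2 or 3 it was 2.68 or 2.32 and the call was lost, with adjusted p of 0.0692 and 0.109 in a range of 0.00551 to 0.154 over all alternatives. At 1 day the vehicle livers had 5.35, 6.35 and 5.44 and the baclofen livers 8.79, 5.74, 6.78 and 5.93. The difference of 1.10 ± 0.94 did not pass (adjusted p = 0.758).

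Cyp4a31, a close copy in the same gene cluster, did not pass at either time. Its vehicle livers lay between 5.64 and 6.20 at 5 days, and its baclofen livers had a lowest value of 5.72, a median of 6.86 and a highest of 7.07. The lowest baclofen liver was replicate 4, also the lowest for Cyp4a14. The difference was 0.69 ± 0.24 at 5 days (adjusted p = 0.0725) and 0.84 ± 0.30 at 1 day (adjusted p = 0.182). Without liver baclofen 5 day replicate 4 it passed, with 0.82 and an adjusted p of 0.0169, in a range up to 0.352 over the alternatives. At 1 day the groups did not overlap, 5.28 to 5.89 against 6.04 to 7.33, and Cyp4a31 was the 1 member of 20 for which that held, beside 12.5% of all genes. This rests on the disputed 1-day labels: grouped by source field, the 1-day difference of Cyp4a31 was -0.01 (adjusted p = 0.9999). A second, dimmer probe set of Cyp4a31 ran from 3.41 to 3.95 in vehicle and from 3.65 to 6.39 in baclofen livers at 5 days.

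A further probe set is annotated to both Cyp4a10 and Cyp4a31 and so is no member. It ran from 8.38 to 9.91 in vehicle and from 8.84 to 11.45 in baclofen livers at 5 days, a difference of 1.33 ± 0.41 with an adjusted p of 0.0709 over 45037 probe sets. The Cyp4a genes are similar enough that probes may pick up more than 1 of them. Cyp4a12a, by contrast in level, stood between 12.16 and 12.59 in baclofen and between 12.41 and 12.49 in vehicle livers at 5 days, with a difference of -0.10 ± 0.08.

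Among 22 measured genes of fatty acid oxidation and PPAR-alpha targets other than P450s, 21 were tested in liver. At 5 days 3 rose and 2 fell, beside 10.6% of all genes called, 4.86% higher and 5.75% lower. The median log2 difference of the 21 was 0.05 against -0.02 for all genes. Risers were the acyl-CoA thioesterases Acot1 (1.53 ± 0.40, adjusted p = 0.0188) and Acot4 (0.77 ± 0.19, adjusted p = 0.0155) and the peroxisome division factor Pex11a. The pantetheinase Vnn1 fell by 0.84 (SE 0.23, adjusted p = 0.0231), and Plin2, a lipid droplet coat protein, also fell. At 1 day limma called 0 of the 21, beside 2.67% of all genes, and Acot1 differed by 1.11 ± 0.49.

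Cyp26b1 (NCBI Gene 232174), which clears retinoic acid, was the member with the smallest adjusted p in liver at 5 days. Vehicle livers had 6.62, 5.61, 6.40 and 6.21. Baclofen livers had 7.04, 7.27, 7.81, 7.64, 7.02, 7.27, 7.96 and 7.12. Every baclofen liver lay above every vehicle liver; 2 of the 20 members had groups apart in this way, beside 5.49% of all genes. The difference was 1.18 ± 0.28, or 2.27-fold (adjusted p = 0.0111). Without liver vehicle 5 day replicate 2, the lowest, it was 0.98 and the call was lost (adjusted p = 0.0533, in a range of 0.00462 to 0.0663). In 1-day livers, vehicle arrays had 5.67, 7.48 and 6.47 and the baclofen livers 6.96, 7.77, 7.65 and 6.88. That difference, 0.78 ± 0.35, did not pass (adjusted p = 0.344), and the groups overlapped through vehicle replicate 2. Grouped by source field, the 1-day difference was -0.02 (adjusted p = 0.9999).

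Its relative Cyp26a1 varied more between arrays and did not pass. Vehicle livers at 5 days ran from 7.26 to 8.81, and baclofen livers had a lowest value of 7.82, a median of 8.28 and a highest of 10.32. Baclofen replicates 7 and 8, at 10.32 and 10.11, stood above all other livers. The difference was 0.76 ± 0.49 (adjusted p = 0.335). Of 15 other tested retinoid genes 1 rose at 5 days, the retinoic acid receptor Rarb (0.73 ± 0.21, adjusted p = 0.0315), and none fell. The list's median difference was 0.07, against -0.02 for all genes, of which 10.6% were called.

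The plot of single livers shows these genes beside those of sterol metabolism. Cyp46a1 (NCBI Gene 13116), the cholesterol hydroxylase best known from neurons, rose least of the 3 members called in liver at 5 days. Vehicle livers at 5 days had 8.57, 7.88, 8.38 and 8.42, and baclofen livers had 8.67, 9.28, 9.53, 8.92, 8.93, 9.53, 8.38 and 8.89. Only baclofen replicate 7 lay within the vehicle range. The difference was 0.71 ± 0.22, or 1.63-fold (adjusted p = 0.0473). This call was lost under 15 alternatives, with adjusted p of up to 0.173 when liver vehicle 5 day replicate 2 was left out and the difference was 0.56. After 1 dose, vehicle livers had 8.12, 8.47 and 8.19 and the baclofen livers 8.74, 7.74, 8.22 and 8.97, a difference of 0.16 ± 0.28.

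**Figure D3:**
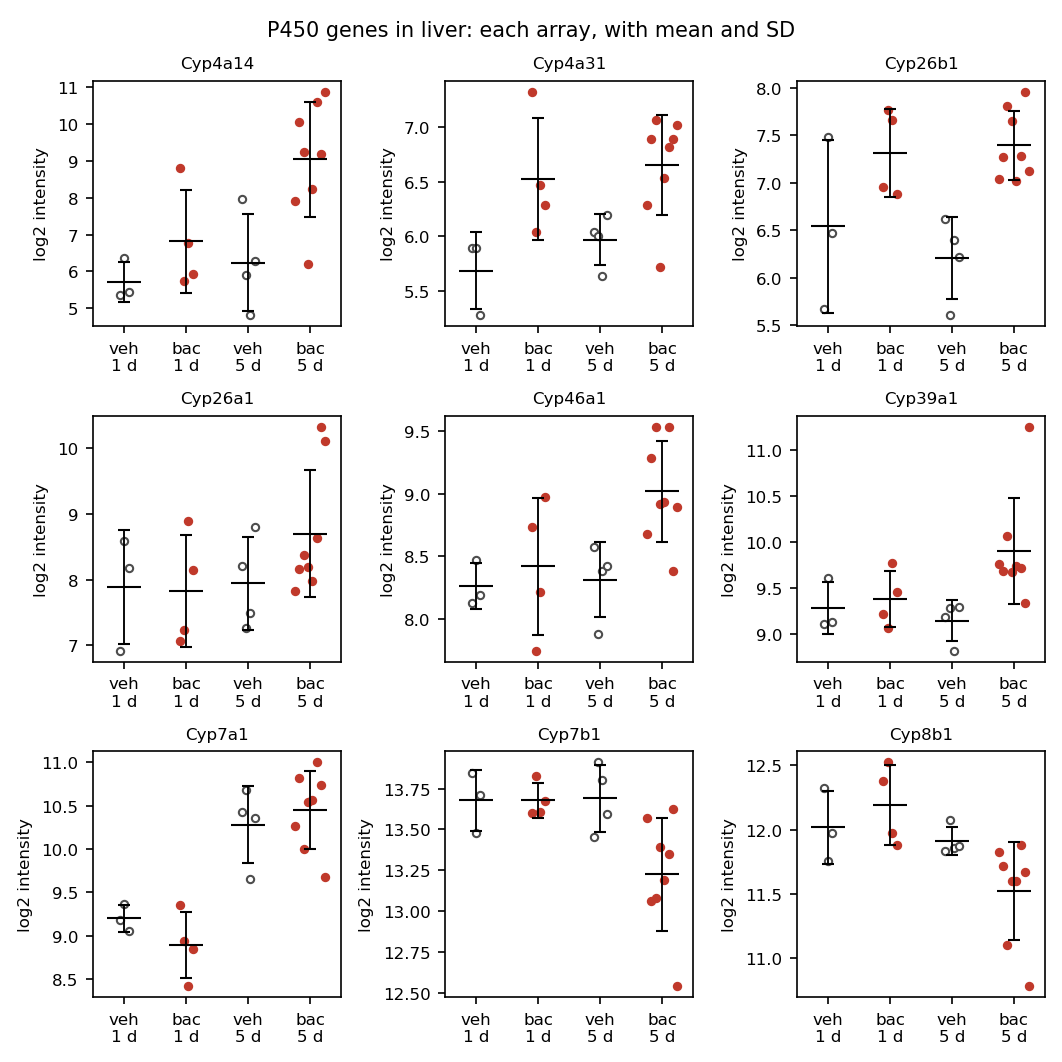
Log2 intensity of 9 P450 genes in every liver array (points), by treatment (veh, vehicle; bac, baclofen) and time, with the group mean (dash) and SD (bars); the axes differ between panels and do not start at 0. For Cyp26b1 at 5 days all baclofen livers (7.02 to 7.96) lie above all vehicle livers (5.61 to 6.62).

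Cyp39a1 acts on the oxysterol that Cyp46a1 makes. Vehicle livers at 5 days ran from 8.82 to 9.30, and baclofen livers had 9.76, 9.69, 10.06, 9.67, 9.74, 9.71, 9.33 and 11.25. The groups did not overlap, and baclofen replicate 8 stood far above the rest. The difference of 0.76 ± 0.24 narrowly missed the threshold (adjusted p = 0.0543). Without that array it was smaller, 0.56, and passed (adjusted p = 0.0173, in a range up to 0.179).

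Besides Cyp46a1, none of the P450s that turn cholesterol into bile acids passed in liver at 5 days. Cyp7b1, the oxysterol hydroxylase of the alternative pathway, had 13.45, 13.91, 13.80 and 13.59 in vehicle and 13.57, 13.06, 13.08, 13.39, 13.19, 13.35, 13.63 and 12.54 in baclofen livers. Of the 8 baclofen livers, 6 lay below the lowest vehicle liver, replicate 8 being the lowest. The difference was -0.46 ± 0.15 (adjusted p = 0.0543), and it passed without replicate 8 at -0.37 (adjusted p = 0.0465, in a range of 0.0278 to 0.170). A second probe set of Cyp7b1 differed by -0.66 and passed when all probe sets were tested apart (adjusted p = 0.0327). At 1 day the Cyp7b1 difference was 0.00 ± 0.19.

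Cyp8b1, which makes cholic acid, had 11.83, 12.07, 11.86 and 11.87 in vehicle livers at 5 days. Its baclofen livers had a lowest value of 10.79, again in replicate 8, a median of 11.64 and a highest of 11.88. The difference was -0.39 ± 0.18 (adjusted p = 0.167). Cyp7a1, the rate-limiting enzyme of the classic pathway, differed by 0.17 ± 0.23 at 5 days and by -0.31 ± 0.28 at 1 day, and passed at neither. Grouped by source field, its 1-day difference was 0.41 (adjusted p = 0.9999). Cyp27a1, the mitochondrial sterol hydroxylase, stayed between 12.33 and 12.81 in all livers and differed by 0.12 ± 0.07 at 5 days.

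Other measured genes of these pathways were also counted in liver, where 10.6% of all genes were called at 5 days. Of 9 tested bile acid genes beyond the P450s 1 rose at 5 days, the hydroxysteroid reductase Akr1c14 (0.78 ± 0.15, adjusted p = 0.00376). Among 14 regulators of bile acid synthesis 2 rose and 1 fell. The xenobiotic receptor PXR (Nr1i2) rose by 0.75 ± 0.11 at 5 days (adjusted p = 0.00048) and by 0.55 ± 0.14 at 1 day (adjusted p = 0.0414), a call lost when the 1-day livers were grouped by source field. The related receptor CAR (Nr1i3) rose by 0.56 ± 0.16 at 5 days, and the oxysterol receptor LXR-alpha (Nr1h3) fell by 0.23. None of 20 cholesterol synthesis genes passed limma's test at either time, and Cyp51, the lanosterol demethylase, differed by 0.04 ± 0.13 at 5 days.

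Of the steroid hormone enzymes, Cyp17a1 and Cyp21a1 were tested in liver. Cyp17a1, which makes androgen precursors, ran from 6.73 to 8.18 in vehicle and from 8.08 to 8.69 in baclofen livers at 5 days. The difference was 0.82 ± 0.28 (adjusted p = 0.0695), and it passed without liver vehicle 5 day replicate 2, the highest vehicle liver, at 1.04 (adjusted p = 0.0412, in a range up to 0.276). At 1 day it was -0.27 ± 0.35. Cyp21a1, an adrenal enzyme of glucocorticoid synthesis, differed by -0.09 ± 0.05 at 5 days. Of 8 other steroid genes tested, Hsd11b1, which regenerates active glucocorticoid, rose by 0.23 ± 0.07 and Hsd17b2 fell by 0.50. Among 3 vitamin D genes and 8 genes for electron transfer to P450s or haem supply, limma called 0 at 5 days.

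The remaining members tested in liver showed small differences. Cyp4b1, which hydroxylates medium-chain fatty acids and activates some protoxins, had 7.70, 7.34, 7.47 and 7.75 in vehicle livers at 5 days and between 7.61 and 8.13 in baclofen livers. Its difference was 0.28 ± 0.09 (adjusted p = 0.0519), and it passed under 5 alternatives, with adjusted p from 0.0237 to 0.200 over all of them. Cyp20a1, a P450 of unknown substrate, differed by 0.29 ± 0.11 (adjusted p = 0.0878). Cyp4f13, Cyp4f14, Cyp4f15 and Cyp4v3 differed by between -0.03 and 0.18 and did not pass. Without liver vehicle 5 day replicate 1, Cyp20a1 (0.38, adjusted p = 0.0410) and Cyp4f14 (0.23, adjusted p = 0.0372) passed.

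The change of the liver effect from 1 to 5 days was tested directly. None of the 20 members passed limma's test, with 2 at an unadjusted p under 0.05. Of all genes 0.0183% passed, 0% higher, and 9.62% had an unadjusted p under 0.05. Those 2 were Cyp17a1 (1.09 ± 0.45) and Cyp4b1 (0.39 ± 0.14). Vehicle livers at 5 days were also set against vehicle livers at 1 day, where limma called 0 of all genes (0%) and 3 members had an unadjusted p under 0.05, beside 7.14% of all genes. The groups did not overlap for 2 members, Cyp7a1 and Cyp4v3, beside 5.95% of all genes. The largest difference among the members was that of Cyp7a1. Vehicle livers had 9.18, 9.36 and 9.05 at 1 day and 10.42, 10.68, 9.65 and 10.36 at 5 days, a difference of 1.08 ± 0.28 (unadjusted p = 0.0011, adjusted p = 0.400). Baclofen livers of Cyp7a1 ran from 8.42 to 9.35 at 1 day and from 9.67 to 11.00 at 5 days. When the 1-day livers were grouped by source field instead, the vehicle difference was 1.43 and passed (adjusted p = 0.0152). Collection time and array batch of the 2 days are not in the labels used here, and day and batch cannot be told apart.

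In bone marrow 3 members rose after 5 doses, Cyp4b1, Cyp4f13 and Cyp27a1, and none fell. These are 3 of 10 tested, beside 10.1% of all genes, 6.15% higher and 3.93% lower, and 4 had an unadjusted p under 0.05, beside 26.4%. The count was 1 without bone marrow vehicle 5 day replicate 2 or 3. After 1 dose limma called 0 of 10, with 3 at an unadjusted p under 0.05, beside 24.1% of all genes; 7.36% of all genes were called, 3.11% higher and 4.25% lower. The groups overlapped for all 10 members at 1 day, whereas they did not for 13.3% of all genes. Without bone marrow baclofen 1 day replicate 3, the array with the high muscle genes, Cyp39a1 passed at 1 day, lower by 0.38 in baclofen (adjusted p = 0.032).

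Cyp4b1 in marrow had 8.21, 8.80, 8.61 and 8.81 in vehicle and 9.15, 9.11, 8.94, 8.87, 9.03, 9.11, 9.28 and 9.54 in baclofen arrays at 5 days. The groups did not overlap, which held for 1 of the 10 members and 5.25% of all genes. The difference was 0.52 ± 0.12, or 1.44-fold (adjusted p = 0.0134). Without bone marrow vehicle 5 day replicate 1 it was 0.39 and was lost (adjusted p = 0.0708, in a range up to 0.104). At 1 day the Cyp4b1 difference in marrow was 0.02 ± 0.14.

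Cyp27a1 in marrow had 7.94, 6.76, 7.35 and 7.76 in vehicle arrays at 5 days. The 8 baclofen arrays lay close together, from 7.84 to 8.14 with a median of 7.97. Vehicle replicate 2 was the lowest by far and replicate 1 lay within the baclofen range. The difference was 0.53 ± 0.15 (adjusted p = 0.0289). Without vehicle replicate 2 it was 0.30 and did not pass (adjusted p = 0.0895, in a range up to 0.159). The call was also lost without vehicle replicate 3 or baclofen replicate 2 or 6.

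Cyp4f13 had 7.30, 6.95, 7.10 and 7.34 in vehicle marrow and 7.29, 7.37, 7.51, 7.45, 7.61, 7.56, 7.67 and 7.43 in baclofen marrow at 5 days. Only baclofen replicate 1 lay within the vehicle range. The difference was 0.31 ± 0.08 (adjusted p = 0.0184). It was lost without vehicle replicate 2 or 3 (adjusted p = 0.0637 and 0.0645, in a range up to 0.203). Marrow cell markers differed between the same arrays: 4 of 5 erythroid genes rose at 5 days, and the mean of 8 macrophage genes ran from 8.85 to 9.01 in vehicle and from 9.06 to 9.56 in baclofen arrays. Their part in these results was not tested.

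Cyp4f18, the neutrophil member, did not differ beyond its spread in marrow. At 5 days it had 10.22, 9.58, 9.85 and 10.07 in vehicle and 9.58, 9.90, 10.01, 10.07, 9.94, 9.75, 9.97 and 10.14 in baclofen arrays, a difference of -0.01 ± 0.13. The 1-day vehicle arrays had 9.76, 10.17, 10.15 and 10.09 and the baclofen arrays 9.72, 10.01, 10.45 and 9.85. Of 9 tested neutrophil markers 1 fell in marrow at 5 days.

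In spleen 2 of 12 tested members rose after 1 dose, Cyp4f13 and Cyp27a1, beside 15.5% of all genes, 7.64% higher and 7.91% lower; 4 had an unadjusted p under 0.05, beside 32% of all genes. After 5 doses Cyp26b1, Cyp21a1, Cyp27a1 and Cyp4f13 rose, 4 of 12 beside 4.43% of all genes, 3.05% higher and 1.38% lower. The same 4 were those at an unadjusted p under 0.05, beside 25.9% of all genes. No member fell at either time. Cell markers differed between the same 1-day spleens: 2 of 9 neutrophil genes fell, with a median difference of -1.13, and their mean ran from 9.40 to 11.09 in vehicle and from 9.21 to 9.52 in baclofen arrays. The 5 erythroid genes had a median difference of -0.61 at 1 day and none passed. At 5 days the median was -0.91 for the erythroid and -0.47 for the neutrophil genes, and none passed. The erythroid mean then ran from 9.19 to 11.53 in vehicle and from 8.23 to 10.78 in baclofen spleens. The part of these cells in the results was not tested. The number of calls at 5 days rests on single arrays: it was 1 when spleen vehicle 5 day replicate 1 or replicate 2 was left out, and 1 without the 4 libraries with transcripts of another tissue. It was 2 without vehicle replicate 4 or baclofen replicate 1, 2, 5 or 6. At 1 day it was 1 without spleen vehicle 1 day replicate 2 or any 1 of the 4 baclofen spleens.

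Cyp26b1 in spleen at 5 days had 6.53, 6.33, 6.55 and 6.48 in vehicle and 7.04, 7.00, 6.98, 6.97, 7.23, 7.48, 6.95 and 6.99 in baclofen arrays. Every baclofen spleen lay above every vehicle spleen, as for 2 of the 12 members and 5.08% of all genes. The difference was 0.61 ± 0.10, or 1.52-fold (adjusted p = 0.00222). It passed under each alternative in which it was tested, with adjusted p from 0.00143 to 0.0331, the last without the 4 libraries. With the filter at the 60th percentile Cyp26b1 was too dim in spleen to be tested, so that setting gave no call. At 1 day vehicle spleens had 6.83, 6.37, 6.73 and 6.40 and baclofen spleens 6.81, 6.75, 6.83 and 6.98, a difference of 0.26 ± 0.11 (adjusted p = 0.123). The mean of the 4 adipocyte genes with a probe set ran from 4.45 to 4.81 in vehicle and from 4.51 to 6.98 in baclofen spleens at 5 days, and its part in this result was not tested.

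Cyp4f13 in spleen was higher at both times. At 1 day vehicle spleens had 7.27, 7.78, 7.59 and 7.35 and baclofen spleens 7.94, 8.27, 8.24 and 8.08, with no overlap. That was the case for 3 of the 12 members at 1 day, beside 17.2% of all genes. The difference was 0.63 ± 0.13, or 1.55-fold (adjusted p = 0.00426). It passed under each alternative in which it was tested, with adjusted p from 0.00232 to 0.0258. With the filter at the 60th percentile Cyp4f13 was too dim in spleen to be tested at either time. At 5 days vehicle spleens had 7.31, 7.49, 7.66 and 7.59 and baclofen spleens 7.94, 8.06, 7.62, 7.66, 8.07, 8.21, 8.12 and 7.80. The groups then overlapped, and the difference of 0.42 ± 0.12 (adjusted p = 0.0437) was lost under 12 alternatives, with adjusted p of up to 0.249 and of 0.172 without the 4 libraries.

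**Figure D4:**
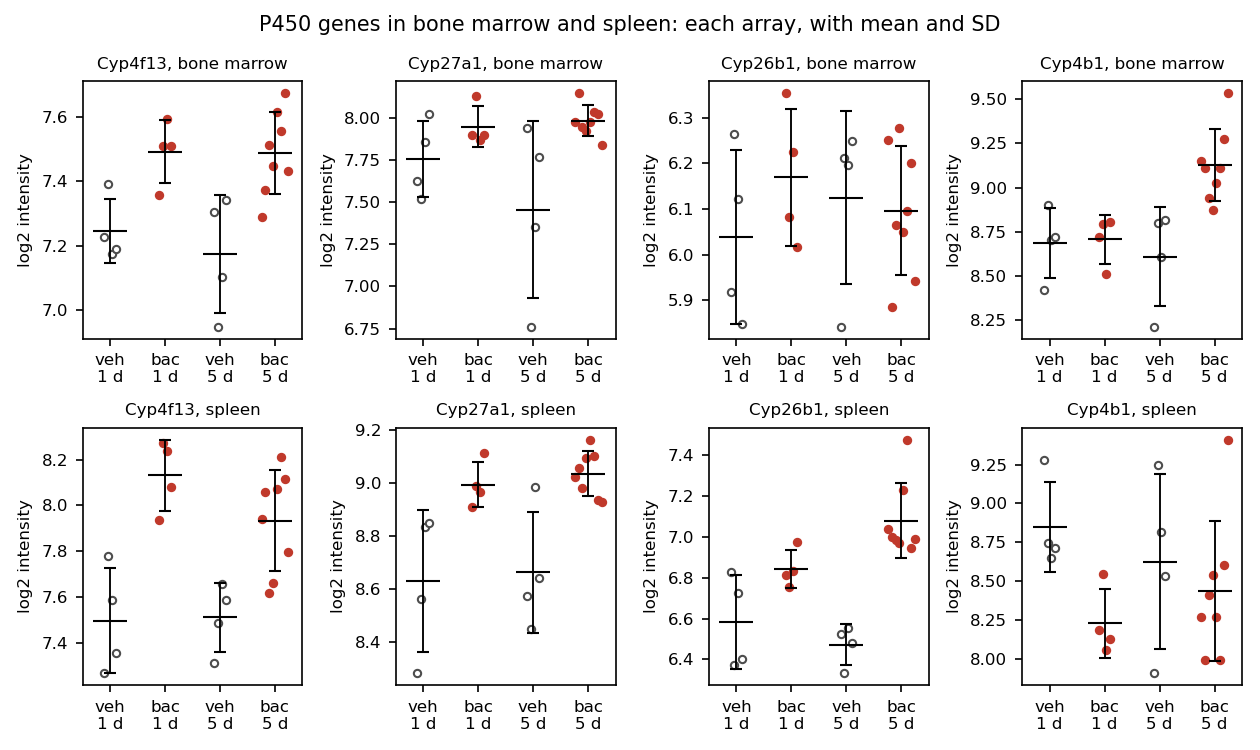
Log2 intensity of Cyp4f13, Cyp27a1, Cyp26b1 and Cyp4b1 in every bone marrow (top) and spleen array (bottom), by treatment and time, with the group mean (dash) and SD (bars); axes differ between panels. For Cyp26b1 in spleen at 5 days, all baclofen arrays (6.95 to 7.48) lie above all vehicle arrays (6.33 to 6.55); in marrow Cyp26b1 was below the brightness filter.

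Cyp27a1 in spleen differed by 0.36 ± 0.11 at 1 day (adjusted p = 0.0375) and by 0.37 ± 0.10 at 5 days (adjusted p = 0.0369). Vehicle spleens at 1 day had 8.28, 8.56, 8.83 and 8.85 and baclofen spleens 8.91, 8.99, 8.97 and 9.11, with no overlap. At 5 days vehicle spleens had 8.57, 8.45, 8.99 and 8.64 and baclofen spleens 9.02, 9.06, 8.98, 9.10, 9.16, 9.10, 8.94 and 8.93. Of the vehicle spleens replicate 3, the one with the highest hepatocyte genes, was also the highest for Cyp27a1, a gene brighter in liver. The 1-day call was lost under 8 alternatives, among them each that left out vehicle replicate 1 or 2 or any 1 baclofen replicate, with adjusted p of up to 0.138 without vehicle replicate 1 (0.25). The 5-day call was lost under 11 alternatives, with adjusted p of up to 0.175, among them without vehicle replicate 1, 2 or 4, without baclofen replicate 1, 2, 4, 5 or 6, and without the 4 libraries (0.47, adjusted p = 0.0526).

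Cyp21a1 in spleen was 6.53, 6.66, 6.54 and 6.65 in vehicle and 6.82, 6.79, 6.95, 6.95, 6.78, 6.86, 6.78 and 6.94 in baclofen arrays at 5 days. The groups did not overlap, but the difference was small, 0.26 ± 0.06 or 1.2-fold (adjusted p = 0.0228). It was lost without the 4 libraries (0.22, adjusted p = 0.151, in a range up to 0.197), and also without vehicle replicate 1, 2 or 3 alone. The mean of the 6 adrenal cortex genes with a probe set ran from 6.90 to 7.10 in vehicle and from 7.04 to 7.31 in baclofen spleens at 5 days, with group means of 7.01 and 7.13. None of the 4 tested adrenal genes passed limma's test there, and their part in the Cyp21a1 result was not tested.

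Other spleen members did not pass. Cyp4f18 had 8.90, 9.41, 9.66 and 9.36 in vehicle and 9.28, 9.31, 9.27 and 9.55 in baclofen spleens at 1 day. At 5 days vehicle spleens had 9.59, 9.04, 9.38 and 9.17, and baclofen spleens ran from 9.24 to 9.82, a difference of 0.17 ± 0.13. Cyp4b1 at 1 day ran from 8.65 to 9.28 in vehicle and from 8.06 to 8.55 in baclofen spleens, without overlap, and the difference of -0.62 ± 0.27 did not pass (adjusted p = 0.125). Cyp7b1 lay between 5.44 and 6.76 in all spleens but 2: vehicle 5 day replicate 3 (8.61) and baclofen 5 day replicate 5 (8.44), the 2 arrays with the highest hepatocyte genes.

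Differences of the baclofen effect between tissues were tested on genes that passed the filter in both. At 5 days the effect on Cyp39a1 was higher in liver than in bone marrow by 1.01 ± 0.24 (adjusted p = 0.00494), 1 of 8 members beside 7.83% of all genes, 3.78% higher and 4.05% lower. At an unadjusted p under 0.05 there were 3 of 8, beside 22.6%. In marrow itself Cyp39a1 differed by -0.25 ± 0.10, which did not pass. Without bone marrow baclofen 5 day replicate 8 that marrow difference was -0.29 and passed (adjusted p = 0.0370). With the filter at the 60th percentile Cyp39a1 was too dim in marrow to be tested. Against spleen the liver effect was higher by 0.81 ± 0.24 for Cyp39a1 (adjusted p = 0.0222) and lower by 0.35 for Cyp21a1 (SE 0.08, adjusted p = 0.00232), 2 of 10 members beside 11.7%, 5.99% higher and 5.68% lower. At an unadjusted p under 0.05 there were 5 of 10, beside 28%. Without liver baclofen 5 day replicate 8 the Cyp39a1 differences were 0.81 against marrow and 0.62 against spleen, and both passed. The Cyp39a1 difference against spleen was lost without the 4 libraries (0.73, adjusted p = 0.0869) and without liver vehicle 5 day replicate 3 (0.70, adjusted p = 0.0768). At 1 day the effect on Cyp4f13 was lower in liver than in spleen by 0.56 (SE 0.16, adjusted p = 0.0217), 1 of 10 members beside 6.51%, 3.61% higher and 2.9% lower. It was the 1 member at an unadjusted p under 0.05, beside 22.3%. The call was lost without liver vehicle 1 day replicate 1 or 2, or spleen vehicle 1 day replicate 1 or 4 (adjusted p from 0.0503 to 0.0755, in a range from 0.000511). With the 1-day livers grouped by source field, the number of members called between liver and spleen at 1 day stayed 1. The Cyp4f13 call was not lost. Within liver that grouping gave Cyp4f13 a 1-day difference of -0.18 in place of 0.08. Between liver and marrow at 1 day limma called 0 of 8 members, with 0 at an unadjusted p under 0.05, beside 2.28% of all genes called, 1.53% higher and 0.754% lower, and 12.8% at an unadjusted p under 0.05. The effect on Cyp26b1 at 5 days, which passed in both liver and spleen, differed between them by 0.58 ± 0.26 (adjusted p = 0.139).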

How the data were processed

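Per the submitters' processing notes, the authors used RMA and limma (no versions given). The deposited values are signal intensity on a linear scale, with medians that differ by tissue. They were taken to log2 here, with no further normalization. Platform annotation named the probe sets; 932 with several symbols and 9160 with none were left out. No genome build is named in the sources used here. limma 3.58.1 (R 4.3.3; lmFit, eBayes) was fitted to the 4 groups of each tissue for all 10916 genes past the brightness filter, with Benjamini-Hochberg adjustment over them. Called means adjusted p under 0.05. Tissue differences came from a fit of all 12 groups. Array values are given for members called in a liver baclofen comparison or brightest in a tissue, and, beyond that rule and after their values were seen, for members called in marrow or spleen and some near the threshold; up to 4 genes of a pathway list are named. The steps were tested on simulated data. Members and lists were chosen with earlier results of these data known. Scanner files were not used, so background correction and slide could not be varied.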

Additional observations from a re-analysis of the deposited data

Results flagged for a closer look

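Single arrays stood apart from their group in 9 of 148 groups of tested members, where chance gives about 1 in 20. In liver baclofen 5 day replicate 8, Cyp39a1 was high at 11.25 and Cyp4v3 low at 11.66. Cyp8b1 was high at 12.07 in liver vehicle 5 day replicate 2, and Cyp27a1 at 8.13 in bone marrow baclofen 1 day replicate 2. In spleen, Cyp4b1 was high in vehicle 1 day replicate 1 (9.28) and baclofen 5 day replicate 8 (9.41), and Cyp4f18 in baclofen 1 day replicate 4 (9.55). Cyp7b1 was high in spleen vehicle 5 day replicate 3 (8.61) and baclofen 5 day replicate 5 (8.44), whose hepatocyte gene means were 9.79 and 9.56; the part of liver transcripts in this was not tested.

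Effects that differed between tissues by a direct test were those of Cyp39a1 in liver against bone marrow (1.01) and against spleen (0.81) at 5 days, of Cyp21a1 in liver against spleen at 5 days (-0.35) and of Cyp4f13 in liver against spleen at 1 day (-0.56). The probe set shared by Cyp4a10 and Cyp4a31, outside the members, differed by 1.33 in liver at 5 days.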

How the results depend on the processing

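Over all alternatives no called value changed direction. Members called in liver at 5 days (3 as reported) became 6 with the filter at the 60th percentile. Marrow at 5 days (3) became 1 with that filter, spleen at 1 day (2) became 1, spleen at 5 days (4) became 1, and the tissue differences at 5 days against marrow (1) and spleen (2) and at 1 day against spleen (1) became 0. Without a filter, spleen gave 1 at 1 day and 2 at 5 days, and liver minus marrow at 5 days gave 5. Testing probe sets apart gave 3 for liver minus marrow at 5 days. Fitting only the groups compared gave 1 for spleen at 1 day. The source field gave 1 for vehicle livers between days. Without the 4 libraries, marrow at 1 day (0) gave 1, spleen at 5 days 1, and liver minus spleen at 5 days 1. With the replicate number as a block, liver and marrow at 5 days gave 0 and spleen at 5 days gave 1. In no comparison did every same-numbered pair correlate above 0.1, but that rule cannot exclude pairing. Same-numbered liver and marrow arrays correlated at 0.08 to 0.23 for vehicle at 5 days. For vehicle at 1 day these correlations ran from -0.059 to -0.001. Whether equal numbers mean 1 animal was not settled, and the fit of all 12 groups took every array as independent. Leaving out each replicate gave 1 to 6 in liver at 5 days, 0 to 1 and 1 to 4 in marrow at 1 and 5 days, 1 to 2 and 1 to 4 in spleen, 1 to 2 for liver minus marrow at 5 days, and 0 to 1 and 1 to 3 for liver minus spleen at 1 and 5 days. With the filter at the 60th percentile, the called members missing in marrow, spleen and the tissue differences were too dim to be tested. Some other settings leave fewer samples or another number of genes, and why those counts moved was not tested.

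Over all genes, the block moved 1159 calls to 385 in liver, 1100 to 30 in marrow and 484 to 61 in spleen at 5 days, and the 2 changes between days to 0. Probe sets apart gave 440 in liver at 1 day (291), 4 for the change between days and 781 in spleen at 5 days. Quantile normalization gave 759 in spleen at 5 days and 1 between vehicle livers. The source field gave 0 in liver at 1 day, 72 for the change and 187 between vehicle livers. Only the groups compared gave 269 in marrow (803) and 676 in spleen (1697) at 1 day. Without the 4 libraries, marrow at 1 day gave 1405 and spleen at 5 days 173. The stricter filter gave 0 for the change and 121 for liver minus marrow at 1 day (215). Leaving out replicates gave 137 to 306 and 584 to 1544 in liver, 303 to 1405 and 244 to 1674 in marrow, 949 to 3049 and 135 to 757 in spleen at 1 and 5 days, 337 to 1255 and 599 to 1380 for liver minus spleen, 0 to 6 for the change and 0 to 3 between vehicle livers. Dim signal limits 8 members, which had no test in any tissue.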
